A study of Homo sapiens with 14 samples.

Results

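A set of 46 forkhead box (FOX) genes of the human genome was examined in HS-SY-II, an established synovial sarcoma cell line, among 20037 protein-coding genes. Members were the protein-coding genes whose symbol is FOX, 1 letter and digits, with an optional final A or B. Membership went by name alone, and the FOXD4-like copies were left out, so the set is not the whole family. The family itself was chosen for study with earlier results of these data known. Chromatin immunoprecipitation followed by sequencing (ChIP-seq) had been done for GLTSCR1, a subunit peculiar to GBAF, which is 1 of the forms of the BAF chromatin remodeller. The same was done with anti-HA for the tagged SS18::SSX fusion protein that drives this tumour. Cells received 100 nM of WA-68, a PROTAC that marks the GBAF subunit BRD9 for degradation, or DMSO vehicle. The GLTSCR1 libraries are DMSO, 12, 24, 48 and 96 h, and the fusion libraries are DMSO, 12, 24 and 48 h, where hours count from WA-68. Each group held 1 library, so no difference between conditions was tested and none can be set against replicate spread. The labels give all libraries the genotype WT and do not say how the HA tag was introduced or whether the cells were a single clone. The harvest time of the DMSO cells is not stated, and every later time is set against the same DMSO library of its antibody, so hours in culture and hours of WA-68 cannot be told apart. The 5 input libraries were not analysed here.

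FOX proteins share a winged-helix DNA-binding domain, the forkhead. Several of them can bind their sites in closed chromatin, and many set cell identity in the embryo, among them FOXC1, FOXC2, FOXF1 and FOXF2 in mesenchyme. Others, such as the FOXO, FOXK and FOXM1 proteins, act in most cell types in growth-factor signalling, metabolism and cell division. Synovial sarcoma arises from mesenchymal cells, and its fusion protein replaces SS18 in BAF complexes.

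For each library the deposited data were a list of peaks. A gene was counted as called when at least 1 region of the list overlapped its span, widened by 1 kb on either side, by at least 1 bp. The fold given for a region is the authors' enrichment of its strongest summit over local background, and its percentile is the share of the regions of the same list with a lower fold. The fold given for a gene is that of the strongest region over its window, which may be a different region in each list. Folds and percentiles describe a region within its own list. Lists differ in length and background, so a higher or lower value in another list shows no change by itself. The lists held between 13677 and 18037 regions for GLTSCR1 and between 24846 and 28619 for the fusion. The whole lists covered 16.8, 11.1, 10.5, 8.55 and 10.3 Mb for GLTSCR1 in DMSO and at 12, 24, 48 and 96 h, and 33.9, 36.4, 30.3 and 33.4 Mb for the fusion in DMSO and at 12, 24 and 48 h. Read depth is unknown from peak lists, and a gene with no call was below the peak caller's threshold in that library.

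FOX genes were called more often than protein-coding genes at large in every list, with the wider gap for the fusion at each time both proteins have. GLTSCR1 was called at 25 of 46 FOX genes in DMSO (54.3%), against 37.3% of all protein-coding genes. The later GLTSCR1 lists called 19 FOX genes at 12 h (41.3%, against 33.4% of all genes), 18 at 24 h (39.1%, against 23.7%), 18 at 48 h (39.1%, against 18.2%) and 21 at 96 h (45.7%, against 23.4%). The fusion was called at 26 FOX genes in DMSO (56.5%), against 24.2% of all genes. At the later times it was called at 25 FOX genes at 12 h (54.3%, against 23.9%), 28 at 24 h (60.9%, against 21.6%) and 28 at 48 h (60.9%, against 23.5%). In the GLTSCR1 lists the count of FOX genes was highest in DMSO, while in the fusion lists it was highest at 24 and 48 h.

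**Figure D1:**
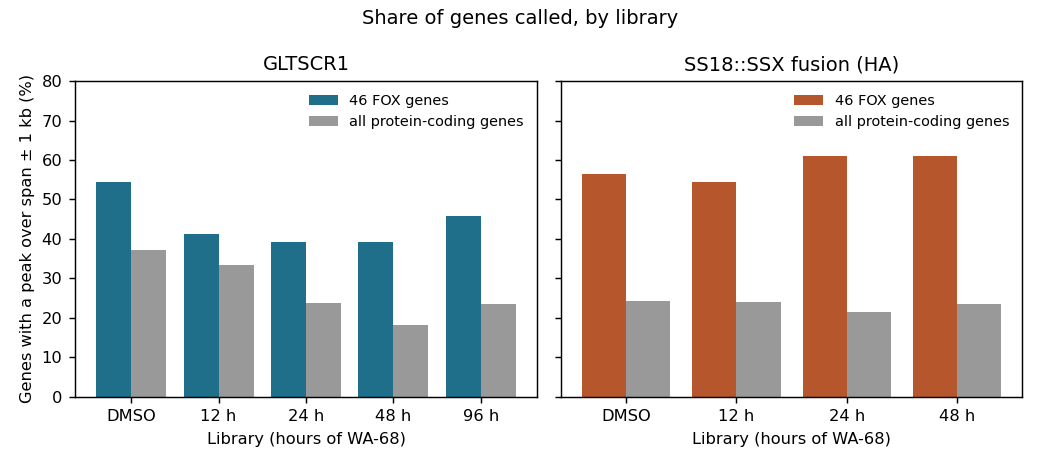
Percent of genes with a called region over the span widened by 1 kb, for each library in time order, with the 46 FOX genes in colour beside all protein-coding genes in grey. The FOX bar stood above the grey bar in each of the 9 libraries, at 54.3% against 37.3% for GLTSCR1 in DMSO and 60.9% against 23.5% for the fusion at 48 h.

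FOX genes are short, and a long gene has more room for a peak: the median span was 5.31 kb for FOX genes, against 24.1 kb for all genes. Among spans of up to 10 kb, a limit chosen after the values were seen, GLTSCR1 was called at 12 of 29 FOX genes in DMSO (41.4%, against 25.4% of 5694 genes of that size). The counts were 9 at 12 h (31.0%, against 22.8%), 9 at 24 h (31.0%, against 13.7%), 11 at 48 h (37.9%, against 11.3%) and 11 at 96 h (37.9%, against 15.2%). The fusion was called at 17 of these 29 FOX genes in DMSO (58.6%, against 20.6%), 18 at 12 h (62.1%, against 21.0%), 20 at 24 h (69.0%, against 19.2%) and 18 at 48 h (62.1%, against 19.1%). The reference table gives a start for 35 FOX genes and 15842 genes. A GLTSCR1 region lay over that base at 10 of the 35 in DMSO (28.6%, against 14.6% of genes) and at 7, 4, 3 and 5 of them at 12, 24, 48 and 96 h (20.0, 11.4, 8.57 and 14.3%, against 10.7, 3.95, 3.45 and 4.69%). A fusion region lay over it at 9 in DMSO (25.7%, against 8.45%) and at 10, 13 and 13 at 12, 24 and 48 h (28.6, 37.1 and 37.1%, against 6.83, 6.86 and 8.80%).

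The 2 proteins shared many of these genes. Both were called at 20 FOX genes in DMSO (43.5%, against 17.8% of all genes), 13 at 12 h (28.3%, against 15.1%), 15 at 24 h (32.6%, against 11.6%) and 16 at 48 h (34.8%, against 12.2%). Each protein by itself was also called more often at FOX genes, so a higher share with both does not show closer sharing. Of the GLTSCR1 regions at FOX genes in DMSO, 75.0% were overlapped by a fusion region of the DMSO list (95% interval 63.4–84.5, n = 72), against 59.3% of the whole GLTSCR1 list. The shares were 72.7% at 12 h (interval 59.0–83.9, n = 55), 74.1% at 24 h (interval 60.3–85.0, n = 54) and 87.8% at 48 h (interval 75.2–95.4, n = 49), against 55.2, 54.1 and 66.7% of the whole lists. In the other direction, 49.5, 36.2, 38.1 and 37.9% of the fusion regions at FOX genes in DMSO and at 12, 24 and 48 h were overlapped by GLTSCR1, against 36.2, 24.2, 26.6 and 25.3% of the whole fusion lists. FOXP2 supplied between 20 and 23 of the GLTSCR1 regions of a list, and without it the GLTSCR1 shares were 64.7, 57.6, 69.7 and 82.8%. Intervals here are exact Clopper-Pearson intervals and cover counting error only, and neighbouring regions are not independent.

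In all, 12 members (26.1%, against 6.48% of all genes) were called in all 9 lists. They included FOXA1, FOXB1, FOXC1, FOXD2, FOXF1, FOXF2, FOXO3, FOXO6, FOXP1, FOXP2 and FOXP4. At the other end, 11 members (23.9%, against 44.4% of all genes) were called in no list, namely FOXH1, FOXI1, FOXI2, FOXI3, FOXJ3, FOXN1, FOXO4, FOXP3, FOXR1, FOXR2 and FOXS1. The uncalled members included FOXP3, which defines regulatory T cells, FOXN1, which is needed in thymic epithelium, and the FOXI genes of the inner ear and other epithelia. FOXJ3, at 159 kb, had the longest span of the uncalled members, and the nearest region of any list lay 120 kb from it. Near other uncalled genes regions came closer, and at FOXH1, a partner of SMAD proteins in the early embryo, the nearest GLTSCR1 region lay 1.22 kb from the span. The nearest GLTSCR1 region lay 1.81 kb from FOXN1, at 24 h, and 4.03 kb from FOXP3, at 12 h. With flanks of 5 kb, 8 members were called in no list.

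**Figure D2:**
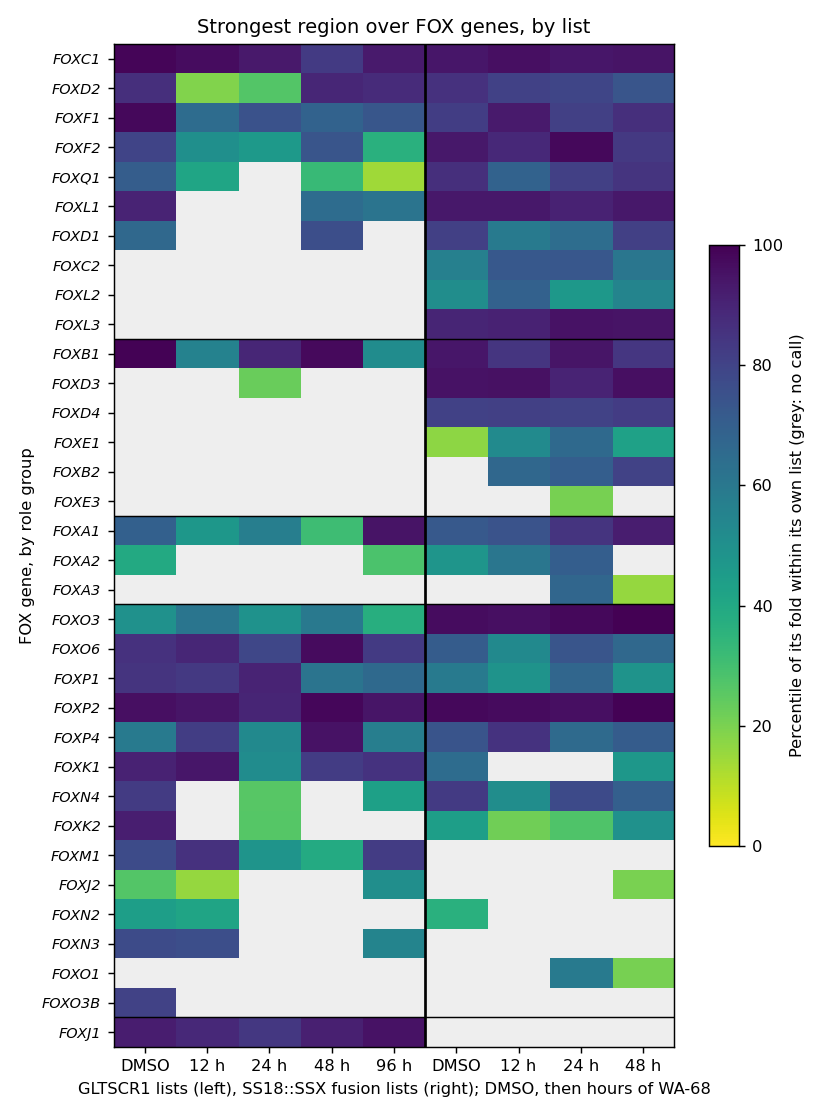
Percentile, within its own list, of the strongest region over FOX genes called at least once, those reported by name, with GLTSCR1 lists on the left, fusion lists on the right, genes grouped by role and grey for no call. FOXC1 stood at the 83.0 percentile or above in all 9 lists, while FOXC2, FOXL2, FOXL3 and FOXD4 were grey in every GLTSCR1 list and coloured in every fusion list.

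The promoter windows of the called members ranged widely in CpG content, and a few are shown to set that range beside the calls. RefSeq (GRCh38.p14) supplied the 250 bases before to 50 after the start of 35 members; those with no entry included FOXA2, FOXC2, FOXE3, FOXF1, FOXH1, FOXJ1, FOXL1, FOXM1, FOXN2 and FOXS1. The windows are printed 5′ to 3′ on the strand of the gene with each CpG in capitals. The first 3 were overlapped by a region in all 9 lists, that of FOXL3 in all 4 fusion lists and no GLTSCR1 list, and that of FOXI3 in none. They are FOXF2 (chr6:1389326-1389625, plus strand), FOXB1 (chr15:60004061-60004360, plus strand), FOXP2 (chr7:114414565-114414864, plus strand), FOXL3 (chr7:289920-290219, plus strand) and FOXI3 (chr2:88452644-88452943, minus strand).
FOXF2: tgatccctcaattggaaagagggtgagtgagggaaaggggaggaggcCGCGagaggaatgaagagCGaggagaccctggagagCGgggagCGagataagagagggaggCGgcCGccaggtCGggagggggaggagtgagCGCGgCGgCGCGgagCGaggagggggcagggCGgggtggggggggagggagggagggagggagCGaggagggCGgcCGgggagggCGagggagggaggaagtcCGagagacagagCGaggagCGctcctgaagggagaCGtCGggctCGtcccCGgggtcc
FOXB1: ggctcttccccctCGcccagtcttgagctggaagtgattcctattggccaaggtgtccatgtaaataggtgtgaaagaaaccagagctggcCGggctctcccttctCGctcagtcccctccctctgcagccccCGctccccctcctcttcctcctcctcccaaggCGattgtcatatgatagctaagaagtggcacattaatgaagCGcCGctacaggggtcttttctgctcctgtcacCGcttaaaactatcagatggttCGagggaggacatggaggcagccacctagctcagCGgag
FOXP2: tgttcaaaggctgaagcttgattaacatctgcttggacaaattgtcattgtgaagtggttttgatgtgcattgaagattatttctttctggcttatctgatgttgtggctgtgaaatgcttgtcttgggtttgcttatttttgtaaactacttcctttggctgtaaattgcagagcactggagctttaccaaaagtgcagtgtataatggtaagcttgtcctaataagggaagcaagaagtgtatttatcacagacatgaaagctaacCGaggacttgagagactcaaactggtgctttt
FOXL3: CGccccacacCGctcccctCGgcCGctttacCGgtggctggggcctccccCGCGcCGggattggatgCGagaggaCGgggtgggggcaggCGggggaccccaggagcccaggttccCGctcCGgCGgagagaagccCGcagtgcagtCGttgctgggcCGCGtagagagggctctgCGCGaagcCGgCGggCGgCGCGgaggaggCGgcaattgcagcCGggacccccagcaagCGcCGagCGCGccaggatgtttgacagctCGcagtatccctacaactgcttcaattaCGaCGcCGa
FOXI3: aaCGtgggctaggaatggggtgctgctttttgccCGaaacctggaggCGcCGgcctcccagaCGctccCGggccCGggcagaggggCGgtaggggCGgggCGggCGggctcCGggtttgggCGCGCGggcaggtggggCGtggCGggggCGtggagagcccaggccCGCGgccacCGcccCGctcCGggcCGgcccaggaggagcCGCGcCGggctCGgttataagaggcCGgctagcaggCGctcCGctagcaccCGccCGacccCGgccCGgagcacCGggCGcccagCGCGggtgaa
FOXF2 had 26 CpG in these 300 bases, FOXL3 had 35 and FOXI3, with no call, had 39. FOXB1 had 10 and FOXP2 had 1, although both windows were overlapped in all 9 lists. FOXI3 and FOXP2 are extremes. FOXI3 had the most CpG of the windows of members called in no list, which went down to 1 at FOXR2. FOXP2 had the fewest of the windows of called members. The observed over expected CpG ratio was 0.96 for FOXF2, 0.43 for FOXB1, 0.09 for FOXP2, 0.92 for FOXL3 and 0.87 for FOXI3. The start given for FOXP2 lies well inside its span, at position 114414815, and its window is CpG-poor. The fourth window overlapped in all 9 lists was that of FOXD2, with 32 CpG and a ratio of 0.73.

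Across the 35 windows the median CpG ratio was 0.85 (range 0.09 to 1.19), against 0.76 over 15842 promoters, and the median GC share was 68.0%, against 62.7%. FOX genes called for GLTSCR1 in DMSO had a median ratio of 0.92 (n = 18) and those not called 0.79 (n = 17), beside 0.84 and 0.67 for all genes. For the fusion the medians were 0.87 (n = 20) and 0.79 (n = 15), beside 0.82 and 0.74 for all genes. Motifs were searched on both strands. The forkhead sequence TGTTTAC was in 1 FOX window (2.86%, against 2.61% of all promoters), that of FOXO4, and TGTTTGC in 2 (5.71%, against 3.16%), those of FOXA1 and FOXD4. The E-box CANNTG was in 22 (62.9%, against 64.5%), the AP-1 sequence TGANTCA in 2 (5.71%, against 5.75%) and the CRE sequence TGACGTCA in 1 (2.86%, against 2.59%), that of FOXD3. These matches are letters in a window and not shown to be bound sites.

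By role, the fusion was called at 10 of the 11 members grouped under mesenchyme. Groups were set by textbook role for each gene letter, except that the FOXD and FOXJ genes were divided by number, and the mesenchyme group was made of FOXC1, FOXC2, FOXD1, FOXD2, FOXF1, FOXF2, FOXL1, FOXL2, FOXL3, FOXQ1 and FOXS1. Grouping by letter also puts FOXL2, FOXL3 and FOXQ1 there, which are best known from the ovary, from germ cells in fish and from epithelial cells. Fusion calls stood at 10 of the 11 in each of DMSO, 12, 24 and 48 h, with FOXS1 the exception, while GLTSCR1 was called at 7, 5, 4, 7 and 6 of them in DMSO and at 12, 24, 48 and 96 h. Among the 11 genes of ectoderm and the early embryo, the fusion was called at 5, 6, 7 and 6 and GLTSCR1 at 2, 2, 3, 2 and 2. For the 3 FOXA genes, pioneer factors of endoderm, the fusion counts were 2, 2, 3 and 2 and the GLTSCR1 counts 2, 1, 1, 1 and 2. The 18 members grouped as broadly expressed, which by letter include the tissue-restricted FOXN1, FOXN4 and FOXP3, had 9, 7, 8 and 10 fusion calls and 13, 10, 9, 7 and 10 GLTSCR1 calls. The background is the share of all genes given above for each list.

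FOXC1 (chr6:1609915-1613897), which directs mesenchyme of the eye, skull and heart, carried wide and high regions of both proteins. GLTSCR1 folds at FOXC1 were 15.4 in DMSO and 11, 8.94, 7.14 and 9.33 at 12, 24, 48 and 96 h. Fusion folds at FOXC1 were 9.74 in DMSO and 10.7, 9.02 and 10.0 at 12, 24 and 48 h. These regions stood between the 83.0 and 98.7 percentiles of their lists, with the 48 h GLTSCR1 region the lowest. The DMSO GLTSCR1 region was 10.8 kb wide (chr6:1600093-1610918) and reached from upstream into the gene. Later GLTSCR1 regions overlapped 7.48, 7.22, 6.44 and 6.50 kb of it at 12, 24, 48 and 96 h, with strongest folds of 11, 12.5, 15.8 and 12.5. The stronger summits at 24, 48 and 96 h belonged to regions that ended more than 1 kb upstream of the gene, so those regions lay outside its window. The regions behind the FOXC1 folds reached the window, but most of their summits also lay beyond the 1 kb flank. For GLTSCR1 these summits lay at -2272 bp in DMSO and at -2263, -2124, -640 and -2307 bp at 12, 24, 48 and 96 h. For the fusion they lay at -1811 bp in DMSO and at -1877, -1762 and -3092 bp at 12, 24 and 48 h. The 48 h GLTSCR1 summit alone was within the flank. The fusion region of DMSO was 6.90 kb wide, and 6.24, 6.62 and 6.87 kb of it were covered again at 12, 24 and 48 h.

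FOXB1 (chr15:60004311-60007444), a factor of the embryonic diencephalon and hindbrain, had the highest GLTSCR1 fold of any member in DMSO. GLTSCR1 folds at FOXB1 were 20.0 in DMSO and 5.12, 7.83, 12.4 and 4.99 at 12, 24, 48 and 96 h. Fusion folds at FOXB1 were 9.69 in DMSO and 6.82, 9.19 and 6.99 at 12, 24 and 48 h. The DMSO value came from a region of 13.5 kb (chr15:59991389-60004870) at the 99.4 percentile of its list, whose strongest summit lay at -4531 bp, upstream of the start. Within that stretch, later GLTSCR1 regions covered 10.2, 10.6, 11.3 and 11.6 kb at 12, 24, 48 and 96 h, with strongest folds of 7.42, 7.83, 12.4 and 9.59. The fusion region of DMSO spanned 15.5 kb over nearly the same stretch, of which 14.1, 12.5 and 14.3 kb were covered at 12, 24 and 48 h.

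**Figure D3:**
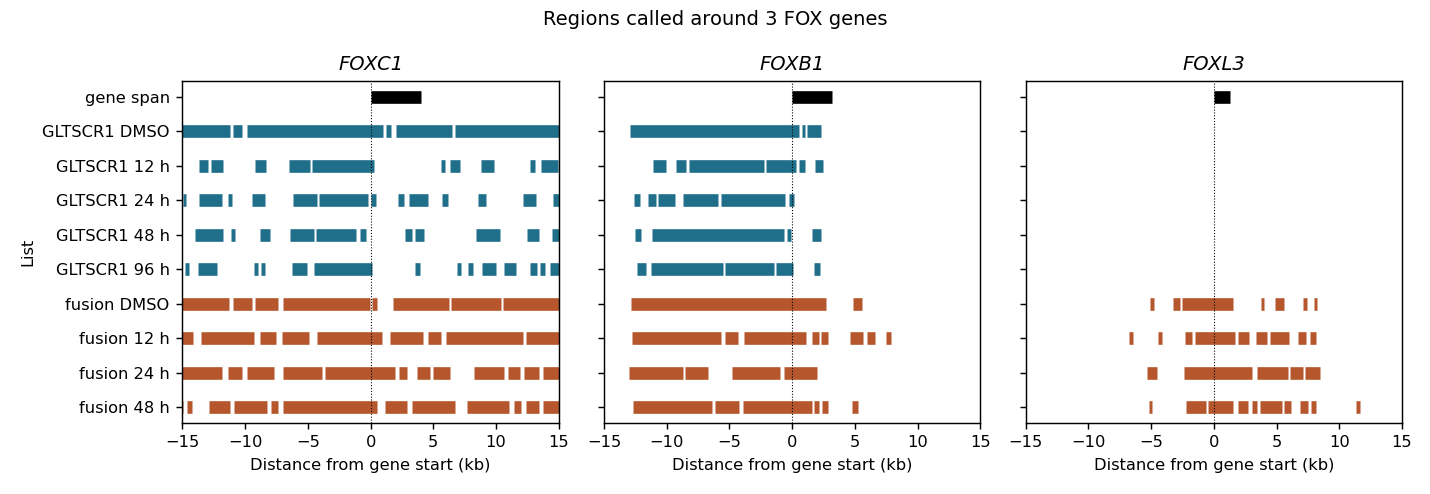
Called regions within 15 kb of the start of FOXC1, FOXB1 and FOXL3, 1 row per list, with the gene span in black, GLTSCR1 in blue and the fusion in orange, and distance from the gene start in kb along the horizontal axis. The 10.8 kb and 13.5 kb GLTSCR1 regions of DMSO at FOXC1 and FOXB1 appear as several shorter regions at later times, and FOXL3 has fusion regions in all 4 lists with no GLTSCR1 region in this stretch.

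FOXF1 (chr16:86510527-86515422), a Hedgehog-responsive factor of gut and lung mesenchyme, was called in every list. GLTSCR1 folds at FOXF1 were 13.2 in DMSO and 5.57, 6.09, 5.93 and 6.16 at 12, 24, 48 and 96 h. Fusion folds at FOXF1 were 6.65 in DMSO and 8.86, 6.44 and 7.40 at 12, 24 and 48 h. The GLTSCR1 region of DMSO stood at the 97.7 percentile and the later ones that reached the window between 64.8 and 74.7. The DMSO region was 6.10 kb wide and its strongest summit lay outside the window. Later GLTSCR1 regions covered 3.07, 3.37, 4.12 and 3.50 kb of it at 12, 24, 48 and 96 h, with strongest folds of 5.59, 7.81, 5.93 and 7.67. The fusion regions covered 4.09, 4.94, 5.96 and 4.85 kb of the FOXF1 window, and GLTSCR1 covered 1.43, 1.20, 1.00, 1.04 and 1.43 kb.

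FOXP2 (chr7:114086327-114693765), known for its role in speech and in the developing brain, spans 607 kb and held more regions than any other member. It had 21, 22, 21, 20 and 23 GLTSCR1 regions in DMSO and at 12, 24, 48 and 96 h, and 27, 32, 28 and 29 fusion regions in DMSO and at 12, 24 and 48 h. GLTSCR1 folds at FOXP2 were 11.2 in DMSO and 9.67, 7.98, 13.5 and 10.0 at 12, 24, 48 and 96 h. Fusion folds at FOXP2 were 12.6 in DMSO and 11.6, 9.96 and 15.7 at 12, 24 and 48 h. All stood at the 89.7 percentile of their lists or above. The strongest DMSO GLTSCR1 region (chr7:114081849-114089107) crossed the lower-coordinate end of the span; later regions overlapping it had folds of 11.2, 14.7, 13.5 and 25.6, and the values at 12, 24 and 96 h came from regions outside the window. The strongest fusion region of DMSO (chr7:114528831-114531544) lay inside the gene and was overlapped at all 3 later times. Fusion regions covered 52.7, 75.2, 41.2 and 52.9 kb of the window and GLTSCR1 regions 17.1, 16.8, 14.7, 12.5 and 18.0 kb.

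FOXO3 (chr6:108559825-108684774), an effector of insulin and stress signalling that AKT keeps out of the nucleus, differed between the proteins in where its strongest region lay. GLTSCR1 folds at FOXO3 were 4.92 in DMSO and 5.39, 4.80, 5.42 and 4.48 at 12, 24, 48 and 96 h, in the middle of their lists. Fusion folds at FOXO3 were 11.4 in DMSO and 10.8, 11.3 and 21.1 at 12, 24 and 48 h, with the 48 h region at the 99.9 percentile. The fusion region (chr6:108674468-108679450 in DMSO) lay near the far end of the gene, with its summit 116207 bp from the start, and 4.5, 4.70 and 4.58 kb of its 4.98 kb were covered at 12, 24 and 48 h. The strongest GLTSCR1 summit lay 777 bp from the start in DMSO and 493 bp from it at 12 h, and at 24, 48 and 96 h it lay 118936, 117169 and 118456 bp from the start, within the stretch of that fusion region.

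FOXD3 (chr1:63322567-63325128), a factor of neural crest and pluripotent cells, was called mainly for the fusion. Fusion folds at FOXD3 were 10.3 in DMSO and 10.5, 7.85 and 10.7 at 12, 24 and 48 h, between the 90.1 and 95.8 percentiles. GLTSCR1 was called at FOXD3 at 24 h alone, with a fold of 3.92 at the 22.9 percentile. Fusion regions covered 83.7, 84.2, 100 and 84.1% of the FOXD3 window in DMSO and at 12, 24 and 48 h.

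FOXJ1, FOXK1 and FOXK2 were among the 8 highest GLTSCR1 folds of DMSO, with fusion calls in 0, 2 and 4 of the 4 fusion lists. GLTSCR1 folds at FOXJ1 (chr17:76136333-76141245), the master factor of motile cilia, were 9.22 in DMSO and 7.88, 6.96, 8.72 and 10.5 at 12, 24, 48 and 96 h. Those regions stood between the 83.9 and 95.2 percentiles, in a stretch of under 1 kb at the higher-coordinate end of the gene (chr17:76140719-76141581 in DMSO) where RNF157-AS1 also lies in the window, and the fusion was never called. GLTSCR1 folds at FOXK1, a regulator of metabolism and autophagy, were 8.71 in DMSO and 9.56, 4.89, 7.10 and 7.42 at 12, 24, 48 and 96 h. The FOXK1 region lay about the same place in all 5 lists, 62570 to 63495 bp from the start, inside the gene. Fusion folds at FOXK1 were 5.25 in DMSO and 4.59 at 48 h, with no call at 12 or 24 h, and the region of DMSO was overlapped in no later list. GLTSCR1 folds at FOXK2, its close relative, were 9.0 in DMSO and 4.03 at 24 h, with no call at 12, 48 or 96 h. That DMSO region, of 0.567 kb with its summit at -517 bp, upstream of the start, was overlapped at no later time. Fusion folds at FOXK2 were 4.38 in DMSO and 3.67, 3.94 and 4.68 at 12, 24 and 48 h, and these strongest summits lay 66663 bp or more into the gene. A second fusion region of DMSO, with a fold of 4.25 (chr17:82518865-82519569), overlapped the GLTSCR1 region near the start, and at 48 h a fusion region with a fold of 3.83 lay just inside the gene (chr17:82520082-82520563).

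FOX genes lie in 3 clusters of 2 or more members within 500 kb of each other. In all 3 the fusion covered more sequence than GLTSCR1 at each time both proteins have. This order is not particular to the clusters. The whole fusion lists covered 33.9, 36.4, 30.3 and 33.4 Mb in DMSO and at 12, 24 and 48 h, against 16.8, 11.1, 10.5 and 8.55 Mb for GLTSCR1. The stretch of FOXQ1, FOXF2 and FOXC1 (chr6:1311098-1614897, 304 kb with 1 kb flanks) held 32.7 kb of GLTSCR1 regions in DMSO and 13.9, 18.2, 18.4 and 15.8 kb at 12, 24, 48 and 96 h. The fusion covered 38.3, 37.9, 38.3 and 38.6 kb of it in DMSO and at 12, 24 and 48 h. The GLTSCR1 sum was lower in every later list than in DMSO, as was the length of the whole GLTSCR1 list, while the fusion sums lay between 37.9 and 38.6 kb. These sums are over regions called separately in each library, 15, 14, 20, 23 and 17 for GLTSCR1 and 17, 19, 18 and 17 for the fusion.

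FOXQ1 and FOXF2, the neighbours of FOXC1, had lower GLTSCR1 percentiles than FOXC1 in every list with a call. GLTSCR1 folds at FOXF2, a factor of gut, palate and pericyte mesenchyme, were 6.86 in DMSO and 4.92, 4.70, 6.28 and 4.46 at 12, 24, 48 and 96 h. Fusion folds at FOXF2 were 9.39 in DMSO and 7.57, 11.6 and 6.91 at 12, 24 and 48 h, between the 83.5 and 98.0 percentiles. GLTSCR1 folds at FOXQ1 (chr6:1312098-1314758), linked to epithelial plasticity in carcinomas, were 6.07 in DMSO and 4.58, 4.42 and 3.70 at 12, 48 and 96 h, with no call at 24 h. Fusion folds at FOXQ1 were 7.37 in DMSO and 5.35, 6.48 and 7.11 at 12, 24 and 48 h. FOXF2 and FOXQ1 were thus called for the fusion in all 4 lists, and for GLTSCR1 in 5 and 4 of 5.

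The stretch of FOXF1, FOXC2 and FOXL1 (chr16:86509527-86584478, 75.0 kb) also holds MTHFSD. It held 7.28 kb of GLTSCR1 regions in DMSO and 3.92, 3.35, 4.32 and 5.62 kb at 12, 24, 48 and 96 h. The fusion covered 17.0, 21.2, 22.2 and 20.3 kb in DMSO and at 12, 24 and 48 h, higher at each later time than in DMSO. Fusion folds at FOXC2 (chr16:86566829-86569728), needed for lymphatic and heart vessels, were 4.87 in DMSO and 5.59, 5.78 and 5.13 at 12, 24 and 48 h, and GLTSCR1 was never called there. GLTSCR1 folds at FOXL1 (chr16:86578549-86583478), which marks mesenchymal cells under the gut epithelium, were 8.64 in DMSO and 5.69 and 5.44 at 48 and 96 h, with no call at 12 or 24 h. Fusion folds at FOXL1 were 9.46 in DMSO and 9.18, 7.90 and 9.29 at 12, 24 and 48 h, between the 90.3 and 93.5 percentiles. FOXL1 so lacked a GLTSCR1 call at the 2 early times and had one again at the later ones, with the fusion called throughout.

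**Figure D4:**
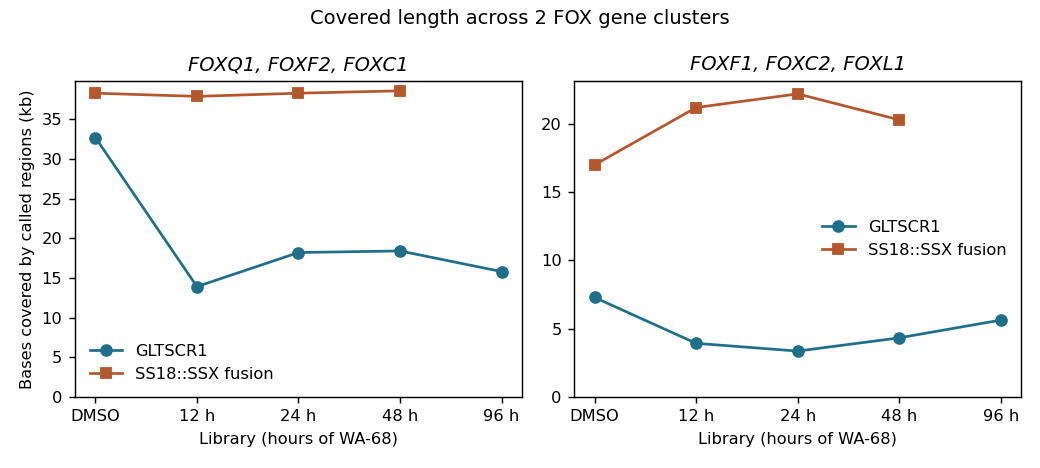
Length in kb covered by called regions across the stretch of FOXQ1, FOXF2 and FOXC1 on chromosome 6 (left) and that of FOXF1, FOXC2 and FOXL1 on chromosome 16 (right), for DMSO and each time of WA-68, drawn at even steps. The fusion line stayed between 37.9 and 38.6 kb on the left, and GLTSCR1 was highest in DMSO in both panels, at 32.7 and 7.28 kb.

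In the small cluster of FOXE3 and FOXD2 (chr1:47415285-47441691, 26.4 kb) GLTSCR1 covered 2.22, 0.885, 1.14, 1.64 and 1.81 kb and the fusion 2.65, 2.0, 3.86 and 3.06 kb. GLTSCR1 folds at FOXD2, expressed in mesenchyme of kidney and skeleton, were 7.84 in DMSO and 3.83, 4.06, 8.21 and 7.84 at 12, 24, 48 and 96 h. Fusion folds at FOXD2 were 7.24 in DMSO and 6.30, 6.28 and 5.88 at 12, 24 and 48 h. FOXE3, a lens factor, was called only for the fusion at 24 h, with a fold of 3.72.

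Most FOX genes with a DMSO call were called again after WA-68. Of the 25 with GLTSCR1 in DMSO, 19 were called at 12 h (76.0%, against 74.1% of all genes called in DMSO), 17 at 24 h (68.0%, against 53.5%), 18 at 48 h (72.0%, against 42.5%) and 21 at 96 h (84.0%, against 53.4%). At every later time 15 were called (60.0%, against 31.1%), and FOXO3B alone was called at none (4.00%, against 16.4%). Of the 21 FOX genes without GLTSCR1 in DMSO, 0 gained it at every later time, against 1.14% of all such genes. Of the 26 with the fusion in DMSO, 24 were called at each of 12, 24 and 48 h (92.3%, against 71.0, 67.6 and 71.5%) and 23 at all 3 (88.5%, against 55.0%). FOXN2 alone had the fusion in DMSO and at no later time (3.85%, against 15.4%). At 12 h the FOX share for GLTSCR1 was close to that of all genes, and at the later times it was above it. With the window narrowed to 1 kb either side of the gene start, 17 members had GLTSCR1 in DMSO, of which 12, 8, 11 and 10 were called again at 12, 24, 48 and 96 h (70.6, 47.1, 64.7 and 58.8%, against 68.4, 40.5, 29.2 and 40.4% of all such genes) and 6 at every later time (35.3%, against 17.9%).

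**Figure D5:**
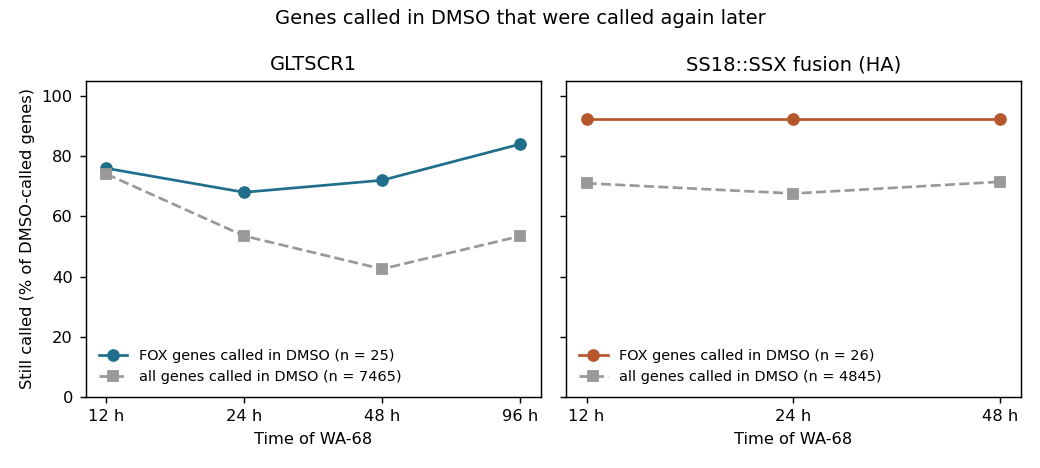
Percent of the genes called in DMSO that were called again at each time of WA-68, for FOX genes (solid line) and all protein-coding genes (dashed line), with GLTSCR1 on the left, the fusion on the right and times drawn at even steps. FOX genes stood at 76.0, 68.0, 72.0 and 84.0% for GLTSCR1 and at 92.3% at all 3 times for the fusion.

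A second call at a gene need not be the same region. The strongest GLTSCR1 region of DMSO was overlapped at 17 of 25 FOX genes at 12 h (68.0%, against 65.4% of all genes called in DMSO), 14 at 24 h (56.0%, against 43.1%), 15 at 48 h (60.0%, against 34.4%) and 19 at 96 h (76.0%, against 43.6%). It was overlapped at every later time at 11 (44.0%, against 23.5%), among them FOXB1, FOXC1, FOXD2, FOXF1, FOXF2, FOXJ1, FOXK1, FOXM1, FOXO6 and FOXP2. At FOXD1, FOXK2, FOXN3 and FOXO3B it was overlapped at none. The strongest fusion region of DMSO was overlapped at 21 of 26 FOX genes at each later time (80.8%, against 59.4, 56.4 and 60.5%) and at 18 at all of them (69.2%, against 42.6%). FOXK1, FOXL2 and FOXN2 had none of it left at any later time. This follow-up of the strongest region was chosen after the values were seen. An overlap of 1 bp was enough, and at FOXA1 the 96 h overlap was 0.0150 kb of a region of 1.00 kb. Wide regions offer more room for an overlap. Regions over 5 kb made up 5.56% of the GLTSCR1 regions at FOX genes in DMSO, against 1.26% of the whole list. The part that width played in these shares was not tested.

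Counted over all regions rather than genes, GLTSCR1 regions at FOX genes were found again about as often as those elsewhere. Of 72 GLTSCR1 regions at FOX genes in DMSO, 55.6% were overlapped at 12 h (interval 43.4–67.3), 43.1% at 24 h and again at 48 h (interval 31.4–55.3 each) and 55.6% at 96 h (interval 43.4–67.3), against 55.8, 47.6, 43.2 and 48.6% of the whole list. Of 99 fusion regions at FOX genes in DMSO, 82.8% were overlapped at 12 h (interval 73.9–89.7), 73.7% at 24 h (interval 63.9–82.1) and 71.7% at 48 h (interval 61.8–80.3), against 72.3, 64.7 and 68.8%. All the whole-list GLTSCR1 shares fell inside the intervals of the FOX regions, and for the fusion this held at 24 and 48 h. FOXP2 alone supplied 27 of the 99 fusion regions and 21 of the 72 GLTSCR1 regions, and regions of 1 gene are not independent. Without FOXP2 the fusion shares were 77.8, 77.8 and 73.6%, and the GLTSCR1 shares 52.9, 41.2, 39.2 and 54.9%. No intervals were computed for these. When the strongest summits had to lie within 250 bp, the shares for GLTSCR1 were 36.1, 29.2, 29.2 and 34.7% at 12, 24, 48 and 96 h, against 38.2, 31.6, 29.6 and 32.7% of the whole list. For the fusion they were 36.4, 39.4 and 30.3% at 12, 24 and 48 h, against 33.5, 32.3 and 33.4%, close to those of GLTSCR1. Folds of regions at FOX genes were in the middle of their lists, with a median percentile between 40.5 and 50.9 in the GLTSCR1 lists and between 50.8 and 63.3 in the fusion lists. Fusion regions at FOX genes were wider, with a median of 0.927, 0.881, 0.850 and 0.898 kb in DMSO and at 12, 24 and 48 h, against 0.675, 0.647, 0.658 and 0.663 kb in the whole lists.

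Counted in bases, GLTSCR1 regions covered 64.9 kb of the 46 windows in DMSO and 37.0, 32.1, 27.2 and 38.5 kb at 12, 24, 48 and 96 h. Fusion regions covered 123, 145, 114 and 124 kb in DMSO and at 12, 24 and 48 h. Without FOXP2 the GLTSCR1 sums were 47.8, 20.1, 17.4, 14.6 and 20.5 kb and the fusion sums 70.6, 70.1, 72.3 and 71.2 kb. The GLTSCR1 sum was thus lower at every later time than in DMSO while most of the genes stayed called, and the whole lists, given above, were shorter at those times as well.

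Loss of GLTSCR1 calls was scattered over times and genes. FOXA2, FOXD1, FOXK2, FOXL1, FOXN4 and FOXO3B lacked a call at 12 h, FOXA2, FOXD1, FOXJ2, FOXL1, FOXN2, FOXN3, FOXO3B and FOXQ1 at 24 h, FOXA2, FOXJ2, FOXK2, FOXN2, FOXN3, FOXN4 and FOXO3B at 48 h, and FOXD1, FOXK2, FOXN2 and FOXO3B at 96 h. FOXO3B (chr17:18667629-18682314) had 1 region in DMSO with a fold of 6.89, and no fusion call. This gene is a near copy of part of FOXO3, so reads could be split between the copies and its call is uncertain. FOXN2, a broadly expressed factor, had GLTSCR1 folds of 4.72 (DMSO) and 4.60 (12 h) and a fusion fold of 4.15 (DMSO), and no call after that for either protein. At FOXN4, a factor of retinal progenitors, the DMSO region was overlapped at 48 h by a GLTSCR1 region of fold 3.64 that ended outside the window, so that loss turned on the edge of the window.

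FOXB2, a relative of FOXB1, was the only member with no fusion call in DMSO and a call at every later time (1 of 20, 5.00%, against 1.39% of all such genes). Fusion folds at FOXB2 (chr9:77019655-77020953) were 5.22, 5.60 and 6.51 at 12, 24 and 48 h, from regions of 0.881, 0.747 and 0.473 kb downstream of the gene. Weaker fusion regions lay just upstream of the start at 12 h (chr9:77018953-77019602, fold 5.19) and at 24 h (chr9:77019232-77019531, fold 4.02). The nearest DMSO region lay 1.11 kb from the span. Of the 2, 3 and 1 fusion regions in the window at 12, 24 and 48 h, 1 in each list was overlapped in DMSO. All of them lay in the flanks, so this call also depended on the 1 kb flank. Other fusion calls absent from DMSO were FOXA3 and FOXO1 at 24 and 48 h, FOXE3 at 24 h and FOXJ2 at 48 h.

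Some members were called throughout for 1 protein and never for the other, and apart from FOXC2 and FOXJ1 they were singled out after their values were seen. With the fusion in all 4 lists and GLTSCR1 in none stood 5 members (10.9%, against 1.80% of all genes), namely FOXC2, FOXD4, FOXE1, FOXL2 and FOXL3. Fusion folds at FOXL3 (chr7:290170-291488), a germ-cell factor in fish, were 8.12 in DMSO and 8.14, 9.53 and 10.1 at 12, 24 and 48 h, between the 89.6 and 95.1 percentiles, and covered 77.0, 94.6, 100 and 83.5% of its window. Fusion folds at FOXD4 were 6.50 in DMSO and 6.42, 6.37 and 6.76 at 12, 24 and 48 h; FOXD4 has several near-identical copies, so its reads may be shared. FOXL2, which maintains the ovary, had fusion folds of 4.64, 5.36, 4.55 and 4.89, and FOXE1, a thyroid factor, had 3.57, 4.59, 5.36 and 4.46. FOXJ1 and FOXM1 (2 members) had GLTSCR1 in all 5 lists and no fusion call (4.35%, against 1.48%). GLTSCR1 folds at FOXM1, a driver of the G2 and mitotic programme, were 6.60 in DMSO and 7.44, 4.77, 4.64 and 6.99 at 12, 24, 48 and 96 h. The DMSO region (chr12:2876343-2877723) lay at the higher-coordinate end of FOXM1, where RHNO1 also lies in the window, so the peak cannot be assigned to 1 of the genes.

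The remaining called members had folds between 3.62 and 12.2, and those named here were chosen after their values were seen. FOXO6 had the highest of these, a GLTSCR1 fold of 12.2 at 48 h beside 7.67, 8.07, 6.41 and 7.10 in DMSO and at 12, 24 and 96 h. GLTSCR1 folds at FOXA1, which opens chromatin for steroid receptors, were 5.96 in DMSO and 4.81, 5.15, 4.36 and 10.1 at 12, 24, 48 and 96 h. They came from different sites. The summit lay 6217 bp from the start in DMSO and 950 to 1006 bp from it later, where DMSO had no GLTSCR1 region. TTC6 also lies in the FOXA1 window. Fusion folds at FOXA1 were 5.70 in DMSO and 5.75, 6.93 and 8.77 at 12, 24 and 48 h, with summits at 6455, 6465, -897 and 1153 bp from the start. FOXP1 and FOXP4, relatives of FOXP2, were called in all 9 lists, with GLTSCR1 folds of 7.54, 7.07, 8.04, 5.53 and 5.68 for FOXP1 and 5.38, 6.87, 4.94, 10.4 and 5.24 for FOXP4. The FOXP1 summits lay 453240 to 453317 bp from the start in DMSO and at 12 and 24 h. At 48 and 96 h they lay 338569 and 338290 bp from it. The FOXP4 summit lay 32 bp from the start in DMSO and 45709 to 57000 bp from it later.

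GLTSCR1 calls were also counted by whether the fusion was called at the gene in DMSO. Of 20 FOX genes with both proteins in DMSO, 13 had GLTSCR1 at every later time (65.0%, against 49.4% of all such genes). Of 5 with GLTSCR1 and no fusion in DMSO, 2 did so (40.0%, against 14.5%), namely FOXJ1 and FOXM1. With 5 genes in the second set, the FOX shares give no order of their own.

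Genes that act around the FOX factors were read from lists made by role, and those named here were chosen after their values were seen. The Hedgehog pathway, which acts upstream of FOXF1, FOXF2, FOXC2 and FOXL1, had GLTSCR1 calls at 9, 8, 7, 8 and 7 of its 11 genes and fusion calls at 8, 9, 8 and 8. For these lists and those that follow, the share of all genes called was 37.3, 33.4, 23.7, 18.2 and 23.4% for GLTSCR1 in DMSO and at 12, 24, 48 and 96 h, and 24.2, 23.9, 21.6 and 23.5% for the fusion in DMSO and at 12, 24 and 48 h. GLTSCR1 folds at HHIP, an inhibitor that binds Hedgehog ligands, were 24.1 in DMSO and 11.3, 17.6, 5.86 and 9.90 at 12, 24, 48 and 96 h, and its fusion folds were 13.5, 12.1, 8.83 and 9.05. PTCH1, the Hedgehog receptor, had GLTSCR1 folds of 16.9, 10.7, 8.73, 7.86 and 14.6 and fusion folds of 9.33, 6.36, 6.53 and 6.62. GLI1, an effector and target of the pathway, had GLTSCR1 folds of 13.6, 9.03, 8.11, 11.9 and 11.2 and fusion folds of 6.48, 7.31, 4.12 and 6.25. Both proteins were thus called at HHIP, PTCH1 and GLI1 in all 9 lists.

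Corepressors and partners of FOX factors had GLTSCR1 at 13, 13, 11, 11 and 9 of 14 genes and the fusion at 11, 11, 11 and 10. TLE1, a Groucho corepressor used as a marker of synovial sarcoma, was called in all 9 lists, with GLTSCR1 folds of 7.64, 4.35, 7.25, 5.53 and 4.06 and fusion folds of 4.73, 5.09, 4.93 and 6.58. In the FOXO pathway, GLTSCR1 calls among 11 upstream receptors and kinases numbered 8 in DMSO and 6, 6, 4 and 2 at 12, 24, 48 and 96 h, and fusion calls 7, 5, 5 and 6. The 2 of 11 at 96 h lie below the 23.4% of all genes. Among 8 textbook FOXO targets the GLTSCR1 counts were 7, 5, 2, 2 and 2 and the fusion counts 5, 4, 2 and 4. For 8 textbook FOXM1 targets, all genes of mitosis, the GLTSCR1 counts were 8, 7, 4, 1 and 5 and the fusion counts 3, 2, 1 and 1. Counts of 1 and 2 genes in these short lists are near the share of all genes. CENPF, a kinetochore protein, was the 1 FOXM1 target with GLTSCR1 in all 5 lists, with folds of 8.06, 9.36, 7.35, 6.21 and 8.21. GLTSCR1 calls in the Hedgehog list differed by at most 2 genes between lists, and those in the FOXO and FOXM1 lists by more. In each of these lists they were fewer at every later time than in DMSO, as were those of all genes. The Hedgehog genes called also changed. GLTSCR1 was in all 5 lists at 6 of the 11, against 2325 of 20037 genes. SMO had it in DMSO alone, GLI3 in DMSO and at 48 h, and IHH at 48 and 96 h.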

How the data were processed

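HS-SY-II cells had been crosslinked with formaldehyde, sonicated and immunoprecipitated for GLTSCR1 or the HA-tagged fusion, per the labels' protocols. Sequencing was paired-end. The submitters' processing notes list BWA, bcl2fastq, cutadapt, deepTools, FastQC, MACS2, Picard, SAMtools and Trim Galore with GRCh38, and their versions, order and parameters were not given in the sources used here. The deposited files were 9 peak lists, called per library by the peak names. For each peak the authors gave a linear fold enrichment at its summit (a ratio), −log10 p and −log10 q values, an integer score and the summit's offset. Folds ranked regions and −log10 q served 1 alternative, while the deposited score was not used. The lowest deposited −log10 q was 3.00 in every list.

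Entries with equal coordinates were joined into 1 region with its strongest summit, on chromosomes 1 to 22, X and Y. Gene spans and promoter sequences came from RefSeq tables of GRCh38.p14; all 46 members were matched by symbol, and no filter on low values was applied. Values in every list are given for the 8 members with the highest DMSO fold per antibody, those called in DMSO and at no later time, those gained at every later time, and members of clusters within 500 kb. A member that this rule names is counted in the totals but not reported here by name. The members and lists were chosen with earlier results of these data known. With 1 library per group, all comparisons are descriptions. Overlap counting was tested on simulated data. Alternatives changed the window, the overlap, the q threshold, list length, members and times. Python 3.11.15, numpy 2.4.6, pandas 2.3.3, scipy 1.17.1 and matplotlib 3.10.9 were used.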

Additional observations from a re-analysis of the deposited data

How the results depend on the processing

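Of 292 values under other settings, 258 kept their size, within 1.5 times the count or inside the interval of the share, and 34 did not. The causes were not tested. The single GLTSCR1 gene called in DMSO and at no later time became 2 with no flank, 4 at gene ends only, 3 at a −log10 q of at least 5, 3 with lists of equal length, 0 without FOXD4 and FOXO3B, and 2 without the list of any 1 of the later times. The 1 gene that gained the fusion at every later time became 0 with no flank, 0 with 5 kb flanks, 0 when 50% of the shorter of region and window had to overlap, 2 at a −log10 q of at least 5 and 3 without the 12 h list. The 1 gene with the fusion in DMSO alone became 2 without the 48 h list and 0 at gene starts.

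Within 1 kb of the gene start, known for 35 members, GLTSCR1 was called at 10 FOX genes at 24 h and 11 at 96 h. Of the 17 called there in DMSO, 12, 8, 11 and 10 were still called at 12, 24, 48 and 96 h, with 6 at every later time (35.3%, against 60.0% in the main window), 3 at none and 1 gained at every later time. Both proteins in DMSO numbered 13, and 20 members had no call, including those with no start. With strongest summits required within 250 bp, shares found again at 12, 24, 48 and 96 h were 36.1, 29.2, 29.2 and 34.7% for GLTSCR1, and 36.4, 39.4 and 30.3% at 12, 24 and 48 h for the fusion. No paired analysis was possible because each group held 1 library and no test was made. Depth is unknown, which limits any reading of a missing peak.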
